A study of Rattus norvegicus with 8 samples.

Results

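Expression of 40 genes of NFκB signalling was compared between the kidneys of male and female rats. Among the genes are NFκB subunits, their inhibitors and kinases, receptors and adaptors that lead to NFκB, and inflammatory genes that NFκB switches on. They were given as a list of gene names, and a gene was represented by its brightest probe with a matching RefSeq accession. Of the 40 genes, 32 had such a probe and 30 were tested, out of 11827 genes tested and 14737 genes with a named probe on the whole array. Nfkb1, Relb, Rel, Nfkbiz, Tnfaip3, Traf1, Traf3 and Il1r1 had no probe with a matching accession and were not analysed here. Il6 and Cxcl2 had a probe that was too dim to be tested.

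The rats were adult animals of the strain RCCHanTMWIST, 4 females and 4 males, and the labels state no treatment and no introduced allele for either sex. From each rat, RNA of cortical kidney slices was hybridized to 1 Agilent array in 1 colour. The samples are whole tissue, so that fewer cells of a type and less RNA per cell cannot be told apart. The female arrays had a 75th percentile signal of 5025 to 5944 and the male arrays of 5685 to 6547. Values are given on the log2 scale, as signal over that percentile on the array, and a log2 fold-change is the male mean minus the female mean, so that 1 stands for 2-fold. The labels number the rats and name no litter or batch. The p-values set the difference between the sexes against the spread between rats of one sex, whatever that spread contains.

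NFκB is a family of transcription factors that act as dimers. In resting cells the dimers are held in the cytoplasm by inhibitors of the IκB family. Receptors for tumour necrosis factor, interleukin 1 and microbial products signal through adaptors to the IκB kinases, which mark the inhibitor for degradation and release the dimer to the nucleus. There it binds κB sites and activates genes of cytokines, chemokines and adhesion molecules, and also the genes of its own inhibitors. In the kidney the pathway is best known from ischemic and inflammatory injury of the tubules. The study names NFκB as a possible link between BCL6, a transcription factor that is known to bind NFκB subunits, and the renal transporters Oat1 and Oat3. The comparison here is of the NFκB genes themselves between the sexes.

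Several of these genes carry matches to the κB consensus close to their start, and the stretches around the matches are shown because NFκB binds letters of this kind. The sequences are RefSeq promoters of the build GRCr8, from 250 bases before to 50 bases after the start, written in the direction of the gene. Capitals mark matches to the κB consensus of 10 letters, searched on both strands with overlapping matches joined, and 30 bases are given on either side.
Bcl3 (chr1:88613554-88613623, minus strand): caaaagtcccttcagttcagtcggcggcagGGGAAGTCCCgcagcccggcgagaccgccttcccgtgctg
Nfkb2 (chr1:255108324-255108393, plus strand): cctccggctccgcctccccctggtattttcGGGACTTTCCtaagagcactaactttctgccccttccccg
Nfkbia (chr6:78597064-78597133, minus strand): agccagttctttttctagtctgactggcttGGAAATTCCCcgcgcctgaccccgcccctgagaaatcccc
Cxcl10 (chr14:15988849-15988978, plus strand): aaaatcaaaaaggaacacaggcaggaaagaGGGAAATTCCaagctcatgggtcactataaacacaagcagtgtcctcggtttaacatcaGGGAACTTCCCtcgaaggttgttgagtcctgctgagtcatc
Vcam1 (chr2:206742837-206742906, minus strand): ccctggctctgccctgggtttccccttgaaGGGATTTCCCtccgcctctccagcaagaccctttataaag
Ccl20 (chr9:91837040-91837109, plus strand): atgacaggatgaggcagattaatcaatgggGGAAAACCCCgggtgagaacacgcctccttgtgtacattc

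A promoter was found for 33 of the 40 genes, and not for Relb, Ikbkb, Birc3, Cd40, Csf1, Ccl2 and Ccl5. The κB consensus was present in 19 of the 33 (57.6%), against 2515 of the 33469 promoters of the table (7.51%). Among the tested genes it was present in 11 of 24 promoters (45.8%). Counted from the start, the match of Bcl3 lay at -38 to -29, that of Nfkb2 at -20 to -11 and that of Nfkbia at -31 to -22. The matches of Vcam1 and Ccl20 lay further away, at -93 to -84 and at -89 to -80. Cxcl10, Tlr2 and the unmeasured genes Rel and Tnfaip3 had more than 1 match. The core sequence of a BCL6 site, TTCCTAGAA or TTCCTCGAA on either strand, was found in 0 of the 33 promoters and in 148 of all promoters (0.442%), which says only that these letters are not in the window. A match is a description of the sequence and not a binding site shown here.

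**Figure D1:**
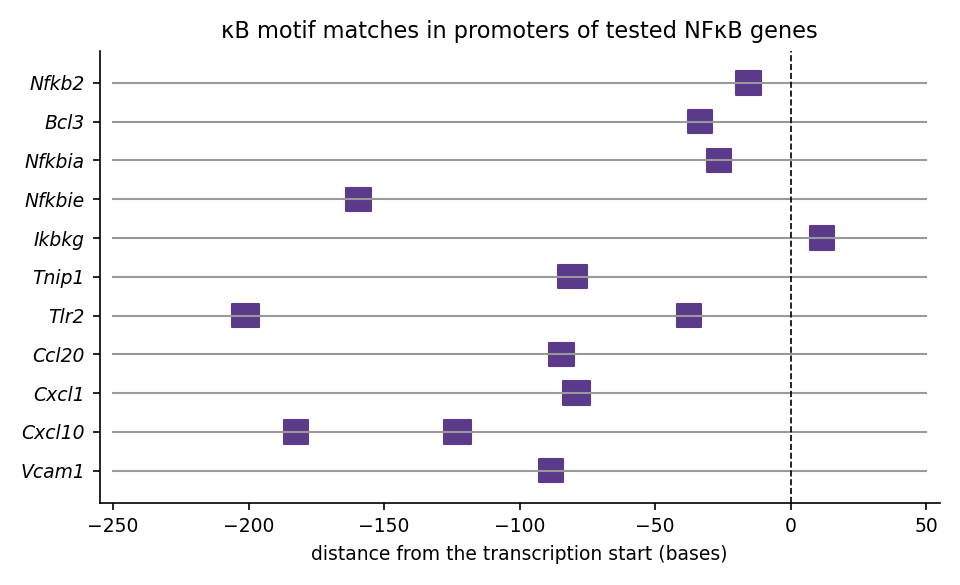
Position of κB consensus matches (bars) in the promoters of the 11 tested NFκB genes that hold 1, from 250 bases before to 50 bases after the transcription start (dashed line at 0). Bcl3, Nfkb2 and Nfkbia hold their match within 40 bases before the start, and only Ikbkg holds it after the start.

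Of the 30 tested genes, 1 passed the threshold of the test, an adjusted p below 0.05. This was Bcl3, which was higher in males. It makes up 3.33% of the genes, against 3.39% of all 23425 tested probes that were called higher in males. By the same limma test 0 of the 30 genes were higher in females, against 4.67% of all probes. At an unadjusted p below 0.05, 4 of the 30 genes (13.3%) stood out, namely Bcl3, Chuk, Irak1 and Tnfrsf1b, all with the higher mean in males, against 25.6% of all probes. No gene differed at least 2-fold at an adjusted p below 0.05, against 1.89% of all probes. The values of males and females did not overlap in 2 genes, Bcl3 and Nfkb2 (6.67%), against 18.5% of all probes. This count depended on the scaling, since it was 6 of 30 after quantile normalization and with the authors' log2 values, against 18.9% and 18.8% of all probes.

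The differences were small. The 95% interval lay inside 2-fold in either direction for 29 of the 30 genes (96.7%), against 89.4% of all probes, and the exception was Ccl20. In 27 genes the log2 fold-change was smaller than 0.26 in size. The median size of the log2 fold-change was 0.11 over the NFκB genes and 0.15 over all probes, at a median standard error of 0.11 in both. With its sign, the median was 0.05 over the NFκB genes and -0.04 over all probes. The male mean was higher in 21 of the 30 genes (70%), against 41.6% of all probes. The arrays lay in 2 rows of 1 slide with 2 rats of each sex per row. In the one row the male mean was higher in 13 of the 30 genes, against 46.4% of all probes. In the other row it was higher in 22 of the 30, against 40.3% of all probes. The median level of the 30 genes varied between rats of one sex with an SD of 0.174. This is a spread of levels in single rats, while the median above is taken over differences between means. The SD therefore cannot show whether that median lies within the spread between rats. With Bcl3 left out, the log2 fold-changes of the other 29 genes lay between -0.50 and 0.32 and their adjusted p between 0.107 and 0.993.

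**Figure D2:**
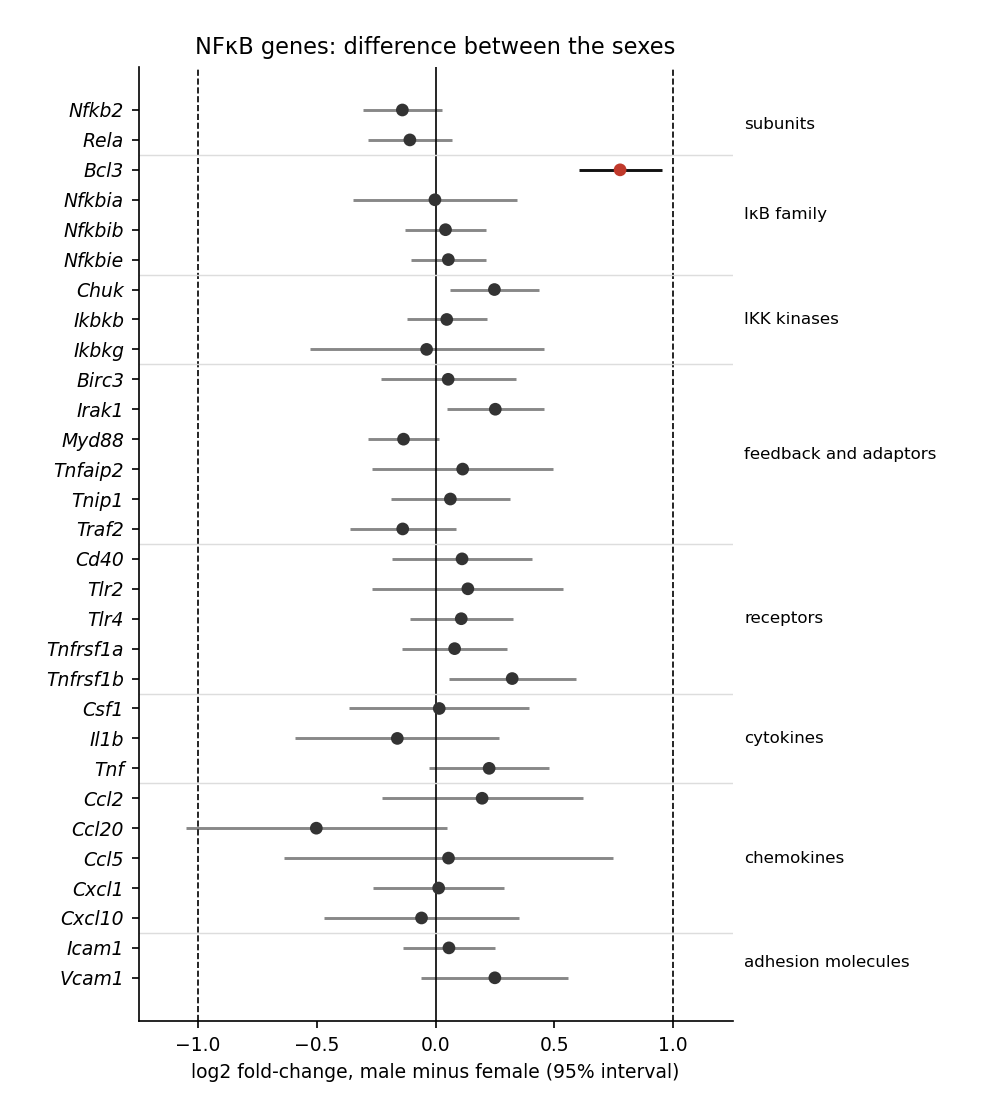
Log2 fold-change, male minus female, of the 30 tested NFκB genes ordered by role (points, with 95% interval of the limma fit as bars, 4 rats per sex), with dashed lines at 2-fold in either direction. Bcl3 (red), at 0.78, is the only gene with an adjusted p below 0.05, and only the interval of Ccl20 crosses a line of 2-fold.

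Bcl3 is an unusual member of the IκB family that sits in the nucleus and modifies transcription from κB sites together with NFκB subunits that lack an activation domain of their own. In the 4 females its probe A_42_P577431 gave -1.003, -1.12, -1.08 and -1.06. In the 4 males it gave -0.17, -0.29, -0.45 and -0.25. Every male was above every female, and the lowest male was further from the females than the females were from each other. The female mean was -1.07 ± 0.050 (SD, n = 4). The male mean was -0.29 ± 0.117 (SD, n = 4). The log2 fold-change was 0.78 with a standard error of 0.076 and a 95% interval of 0.60 to 0.95, which corresponds to a 1.71-fold higher signal in males (1.52-fold to 1.93-fold). The adjusted p was 0.00135 by limma with Benjamini-Hochberg adjustment. The two-sided exact permutation test gave 0.0286, the smallest p that 4 against 4 rats allow. The probe was spotted 10 times on each array and was well above background on all 8 arrays. Within the rows of the slide, the difference was 0.86 in the one row and 0.69 in the other.

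**Figure D3:**
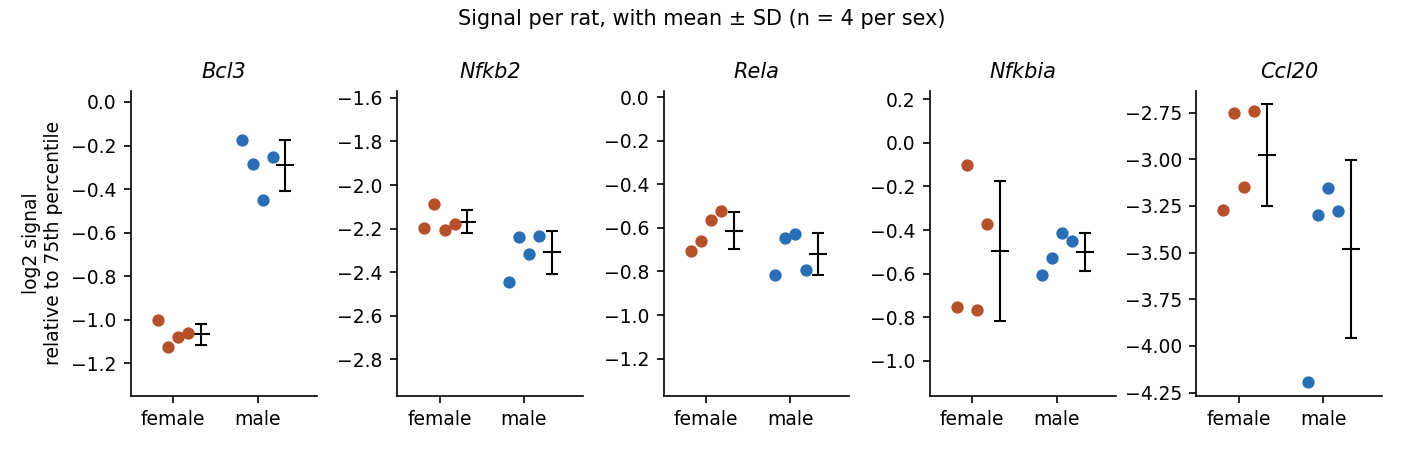
Log2 signal relative to the 75th percentile of the array in each female and male rat (points) for Bcl3, Nfkb2, Rela, Nfkbia and Ccl20, with mean ± SD (n = 4 per sex) beside them. The points of the sexes are far apart for Bcl3, lie close together without overlapping for Nfkb2 and overlap for the other genes.

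Of the 5 subunit genes, those of Nfkb2 and Rela were measured. Nfkb2 encodes the precursor of the subunit used in the alternative NFκB pathway. Its probe A_42_P658264 gave -2.20, -2.09, -2.21 and -2.18 in females. In males it gave -2.44, -2.24, -2.31 and -2.23. All males were below all females, by a margin that was smaller than the spread within either sex. The fitted log2 fold-change was -0.14, with a standard error of 0.072 and a 95% interval of -0.31 to 0.026. The adjusted p was 0.268 by limma, and the exact permutation p was 0.0286 without adjustment. Nfkb2 did not pass the threshold, and after normexp background correction its sexes overlapped.

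Rela encodes the subunit with the activation domain of the classical NFκB dimer. Its probe A_64_P046388 gave -0.71, -0.66, -0.56 and -0.52 in females. In males it gave -0.82, -0.64, -0.63 and -0.79, and the sexes overlapped. A log2 fold-change of -0.11 was fitted (95% interval -0.29 to 0.069), with an adjusted p of 0.427 by limma. A second probe of Rela, A_44_P184726, with a mean signal of 40.5 against 3723 for the first, gave a log2 fold-change of -0.31 and an adjusted p of 0.162. The difference of the first probe was -0.26 in the one row of the slide and 0.05 in the other.

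The other inhibitors of the IκB family did not pass the threshold. Nfkbia, the classical inhibitor and itself a target of NFκB, gave -0.75, -0.10, -0.77 and -0.37 in females with probe A_44_P261450. In males it gave -0.61, -0.53, -0.41 and -0.45. The males lay within the range of the females. Their log2 fold-change was -0.0027 (95% interval -0.35 to 0.34), with an adjusted p of 0.993, and without female 2, the highest rat, it was 0.13. Nfkbib and Nfkbie, inhibitors of the same family, had log2 fold-changes of 0.04 (95% interval -0.13 to 0.21) and 0.05 (-0.10 to 0.21).

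The 3 subunits of the IκB kinase complex did not pass the threshold. Chuk, the catalytic subunit that serves the alternative pathway, had a log2 fold-change of 0.25 (95% interval 0.06 to 0.44) with an adjusted p of 0.107. Ikbkb, the catalytic subunit of the classical pathway, had 0.05, and Ikbkg, the regulatory subunit, had -0.04. The probe of Ikbkg was dim, with a mean signal of 39.0, and its interval was wide, from -0.53 to 0.45.

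The 6 adaptors and feedback genes measured had log2 fold-changes between -0.14 and 0.25, and the lowest adjusted p was 0.123. The highest value belonged to Irak1, a kinase below the interleukin 1 and Toll-like receptors (0.25, 95% interval 0.05 to 0.46). Myd88, the adaptor that recruits it, had the opposite sign (-0.13), as had Traf2, an adaptor of the tumour necrosis factor receptors (-0.14). Birc3, a ubiquitin ligase of the same receptor complex, had 0.05, Tnip1, a binding partner of the feedback inhibitor A20, had 0.06, and Tnfaip2, a gene induced by tumour necrosis factor, had 0.11.

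All 5 receptors measured had the higher mean in males, between 0.08 and 0.32 on the log2 scale, and none passed the threshold. Within the rows of the slide this held for all 5 in the one row and for 2 of 5 in the other, where Tlr2, Tlr4 and Cd40 had the lower mean in males (-0.23, -0.10 and -0.18). Tnfrsf1b, a receptor for tumour necrosis factor found mainly on leukocytes and endothelium, had the highest value (0.32, 95% interval 0.06 to 0.59) with an adjusted p of 0.129. Its probe gave between -3.24 and -2.75 in females and between -2.78 and -2.64 in males, and female 4 lay within the males. When female 4 was left out, Tnfrsf1b passed the threshold beside Bcl3. Tnfrsf1a, the receptor of most cell types, had 0.08. Tlr2 and Tlr4, which recognise bacterial products, had 0.14 and 0.11, and Cd40, a costimulatory receptor, had 0.11 with the brighter and 0.09 with the dimmer of its 2 probes.

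Among the cytokines, Tnf had a log2 fold-change of 0.23 with an adjusted p of 0.245, Il1b had -0.16 and Csf1, the growth factor of macrophages, had 0.02. Il6 was well above background on 0 of the 8 arrays, counting an array where most spots of the probe were. Its probe gave between -10.6 and -9.79, below the lowest signal that was well above background on the same arrays, which was between -8.60 and -7.88. Cxcl2, a chemokine that attracts neutrophils, was also well above background on 0 of the 8 arrays, with -7.38, -8.99, -9.27 and -8.84 in females and between -9.47 and -8.41 in males. No fold is given for either gene.

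Of the 5 chemokines tested, Ccl20 showed the largest difference of any gene after Bcl3. Ccl20 attracts lymphocytes and dendritic cells that carry the receptor CCR6. Its probe A_64_P157743 gave -3.27, -2.75, -3.15 and -2.74 in females. In males it gave -4.19, -3.30, -3.15 and -3.28. Male 1 was far below the other rats, while male 3 lay within the range of the females and males 2 and 4 just below it. The log2 fold-change was -0.50, with a standard error of 0.240, a 95% interval of -1.05 to 0.048, an adjusted p of 0.233 by limma and an exact permutation p of 0.0571. Without male 1 it was -0.26. A second probe, A_43_P11985, gave -0.47 with an adjusted p of 0.268, and male 1 was again the lowest rat, at -4.75.

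Ccl5, which attracts T cells, had a log2 fold-change of 0.05 and the widest interval of the 30 genes, from -0.64 to 0.75. In females it ranged from -0.02 in female 1 to 1.54 in female 4. In males it ranged from 0.32 to 0.85. Ccl2, which attracts monocytes, had 0.20, Cxcl1, which attracts neutrophils, had 0.01, and Cxcl10, which is induced by interferon, had -0.06. Of the adhesion molecules that hold leukocytes to endothelium, Vcam1 had 0.25 (95% interval -0.06 to 0.56, adjusted p = 0.288) and Icam1 had 0.06.

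The NFκB genes also differed between rats of one sex. Female 4 was the highest female in 16 of the 30 genes, while over all probes it was the highest female in 22.6%. Male 1 was the lowest male in 21 of the 30 genes, while over all probes it was the lowest male in 18.0%. Male 2 was the lowest male in 1 gene and the highest in 12, while over all probes these shares were 18.9% and 30.6%. Female 2 was the lowest female in 11, while over all probes it was the lowest female in 22.7%. The genes are not independent of each other, and these counts describe the 8 rats. The summed signal of 21 leukocyte marker genes, in multiples of the 75th percentile of the array, was 44.2, 39.4, 44.8 and 49.4 in females and 39.2, 53.6, 39.2 and 44.4 in males. It was highest in female 4 and male 2 of their sexes. It was equally low in male 1 and male 3, and male 3 was the lowest male in 4 of the 30 genes. Lyz2 and Cd74 made up 88.0% to 90.4% of this sum, so that it says little of the other 19 markers. Those summed to 4.24, 3.77, 5.32 and 5.58 in females and to 4.61, 6.13, 4.69 and 5.11 in males, a split made after the values were seen. The part of the leukocytes in the values of the NFκB genes was not tested.

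**Figure D4:**
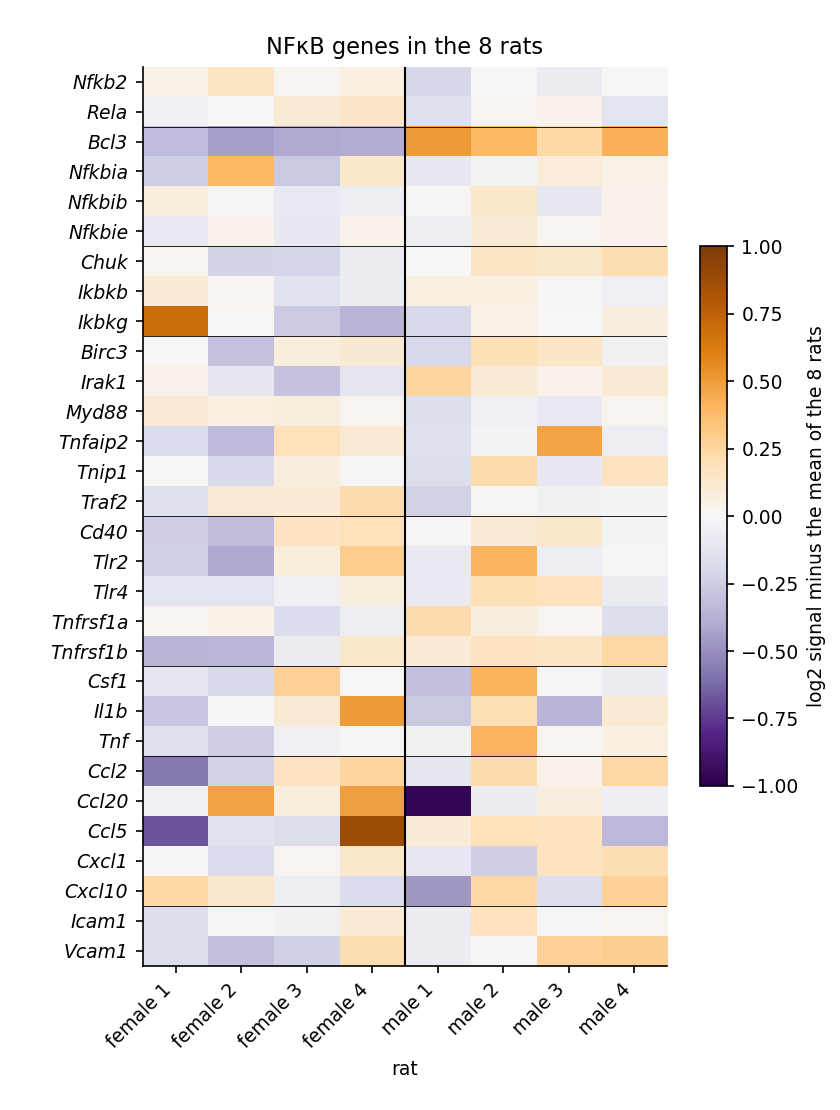
Log2 signal of the 30 tested NFκB genes (rows, ordered by role as subunits, IκB family, kinases, adaptors, receptors, cytokines, chemokines and adhesion molecules) in the 4 female and 4 male rats (columns), minus the mean of the 8 rats for that gene, from below (purple) to above (orange). Bcl3 separates the sexes, and Ccl20 is low in male 1 and Ccl5 is high in female 4.

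Markers of the cells that could carry these genes were compared as well. Of 27 leukocyte markers 21 were tested, and 0 were called by limma, against 8.06% of all probes. An unadjusted p below 0.05 by limma was found for 2 (9.52%), against 25.6% of all probes. In 15 of the 21 the mean was higher in males, against 41.6% of all probes. The sums overlapped between the sexes, both that of all 21 markers and that of the 19 other than Lyz2 and Cd74 (3.77 to 5.58 in females, 4.61 to 6.13 in males). Cd163 and Mrc1, markers of resident macrophages, were well above background on no array. Cd68, Csf1r, Adgre1 and Aif1, also of the leukocyte list, were well above background on all 8 arrays. The sum of 12 endothelial markers was between 29.25 and 32.09 in females and between 26.70 and 29.22 in males, without overlap, and of these Cldn5, a tight junction protein, was lower in males (-0.43, adjusted p = 0.0109). The brightest of the 12, Plvap (-0.15) and Kdr (-0.06), named after their values were seen, were not called by limma. Flt1 (0.25), Cdh5 (0.08) and Nos3 (0.07) had the higher mean in males. The sum of 8 glomerular markers was between 18.4 and 19.2 in females and between 15.2 and 15.9 in males. Plce1, Cdkn1c, Ptpro and Podxl, genes of the podocyte, were lower in males by 0.69, 0.41, 0.34 and 0.27 on the log2 scale. The sum of 7 tubular injury markers was between 8.11 and 10.2 in females and between 5.62 and 7.61 in males, and of these Timp1, an inhibitor of matrix proteases and itself inducible by inflammation, fell by 0.76 in males (adjusted p = 0.00789). Spp1, the brightest of the 7 and named here after its values were seen, made up 31.8% to 54.7% of that sum, with a log2 fold-change of -0.78 that did not pass the threshold (adjusted p = 0.111). The other 6 summed to 4.08 to 4.61 in females and to 3.38 to 3.84 in males, and among them Lcn2 (0.16) and Clu (0.01) did not have the lower mean in males. The sum of 10 markers of the thick limb and distal nephron was 121 to 139 in females and 99.4 to 120 in males. Of the 10, 0 were called by limma and 3 (30%) had an unadjusted p below 0.05, against 8.06% and 25.6% of all probes. The brightest of the 10 were Umod (-0.26) and Aqp2 (-0.37), while Aqp3 (0.31) and Slc12a3 (0.18) had the higher mean in males. Of the 11 marker lists compared, these 4 sums did not overlap, with an exact permutation p of 0.0286 each, or 0.0786 after Benjamini-Hochberg adjustment over the 11 lists. The 15 proximal tubule markers were all tested and their sum overlapped (364 to 402 in females, 360 to 402 in males), with Cubn, an endocytic receptor, lower in males (-0.59). The sum of 18 immediate early genes, which respond to handling of tissue, also overlapped (9.76 to 10.5 and 9.84 to 11.6). The part of these cell types in the values of Bcl3, Ccl20, Vcam1 and Icam1 was not tested.

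Bcl6, the transcription factor that the study connects with NFκB, was higher in males. The females gave -1.65, -1.23, -1.40 and -1.53. The males gave 1.17, 0.79, 0.93 and -0.04, and the sexes did not overlap. The log2 fold-change was 2.17 (4.49-fold) with an adjusted p of 0.00208 by limma. The highest male was male 1 for both Bcl6 and Bcl3, and the lowest was male 4 for Bcl6 and male 3 for Bcl3. A relation between Bcl6 and Bcl3 was not tested.

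Beyond the 40 genes, 3 further lists of the pathway held 161 genes, of which 117 were tested. Of these, 8 (6.84%) passed the threshold, against 8.06% of all probes in either direction. The list of signalling proteins between receptor and NFκB held 43 tested genes and none of them was called by limma, with 8 (18.6%) at an unadjusted p below 0.05 and 5 (11.6%) in which the sexes did not overlap, against 25.6% and 18.5% of all probes. Its median log2 fold-change was 0.02.

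Among 26 tested receptors and ligands that lead to NFκB, 3 were higher and 1 was lower in males, together 15.4% against 8.06% of all probes. Tnfrsf11b encodes osteoprotegerin, a decoy receptor for the ligand of RANK. The females gave -0.53, 0.44, 0.05 and -1.54. The males gave -2.22, -2.43, -2.11 and -2.19. The females were widely spread and all of them were above the males. The log2 fold-change was -1.84, with a standard error of 0.373 (adjusted p = 0.0236 by limma), or 3.58-fold higher in females, and with the replicate number as a block the adjusted p was 0.0572. The call was also lost without 1 rat, for any of the 4 males (adjusted p 0.0533 to 0.0665) and for female 1 or female 3 (0.0516 and 0.0622).

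Egfr, the epidermal growth factor receptor, was higher in males by 0.70 (adjusted p = 0.0040), and Tnfrsf14, a receptor of lymphocytes and epithelia for the ligand LIGHT, by 0.63 (adjusted p = 0.00423). Tnfrsf9, a costimulatory receptor of T cells, was higher in males by 0.73 with an adjusted p of 0.0429. This call was lost with the replicate number as a block (adjusted p = 0.105) and with the slide row as a block (adjusted p = 0.0579), without the filter on dim probes (0.0752) and on leaving out female 1, 3 or 4 or male 1, 2 or 3 (0.0560 to 0.103). At an unadjusted p below 0.05 by limma there were 11 of the 26 genes (42.3%), against 25.6% of all probes. The sexes did not overlap in 6 of the 26 genes (23.1%, against 18.5% of all probes) and the median log2 fold-change was 0.01.

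Among 48 further target genes of NFκB, 2 were higher and 2 were lower in males (together 8.33%), and the sexes did not overlap in 9 (18.8%). Both shares were near those of all probes, 8.06% and 18.5%. An unadjusted p below 0.05 by limma was found for 11 of the 48 (22.9%), against 25.6% of all probes. F3 encodes tissue factor, the starter of blood coagulation. The females gave 1.47, 1.10, 1.38 and 1.28. The males gave 2.73, 2.36, 2.05 and 2.46. Every male was above every female, with a log2 fold-change of 1.09 (2.13-fold, standard error 0.146, adjusted p = 0.00451 by limma).

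Cflar, an inhibitor of caspase activation, was higher in males by 0.65 (adjusted p = 0.0257), and a second probe gave 0.55 (adjusted p = 0.0276). The call of the brighter probe was lost without female 2 or 4 or male 1, 2 or 3 (adjusted p 0.0507 to 0.0638). Plau, the urokinase-type plasminogen activator, fell by 0.56 in males, from 2.29 ± 0.036 to 1.73 ± 0.089 (SD, n = 4 each, adjusted p = 0.00282 by limma). Gadd45b, a stress gene that restrains cell death, fell by 0.49 (adjusted p = 0.0401), and with the replicate number as a block its adjusted p was 0.103. The call of Gadd45b was lost on leaving out any rat but female 1 (adjusted p 0.0628 to 0.0967), with the authors' log2 values (0.0503) and without the filter on dim probes (0.0719). The targets that differed thus included genes with the higher mean in either sex, and the median log2 fold-change of the list was 0.13.

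**Figure D5:**
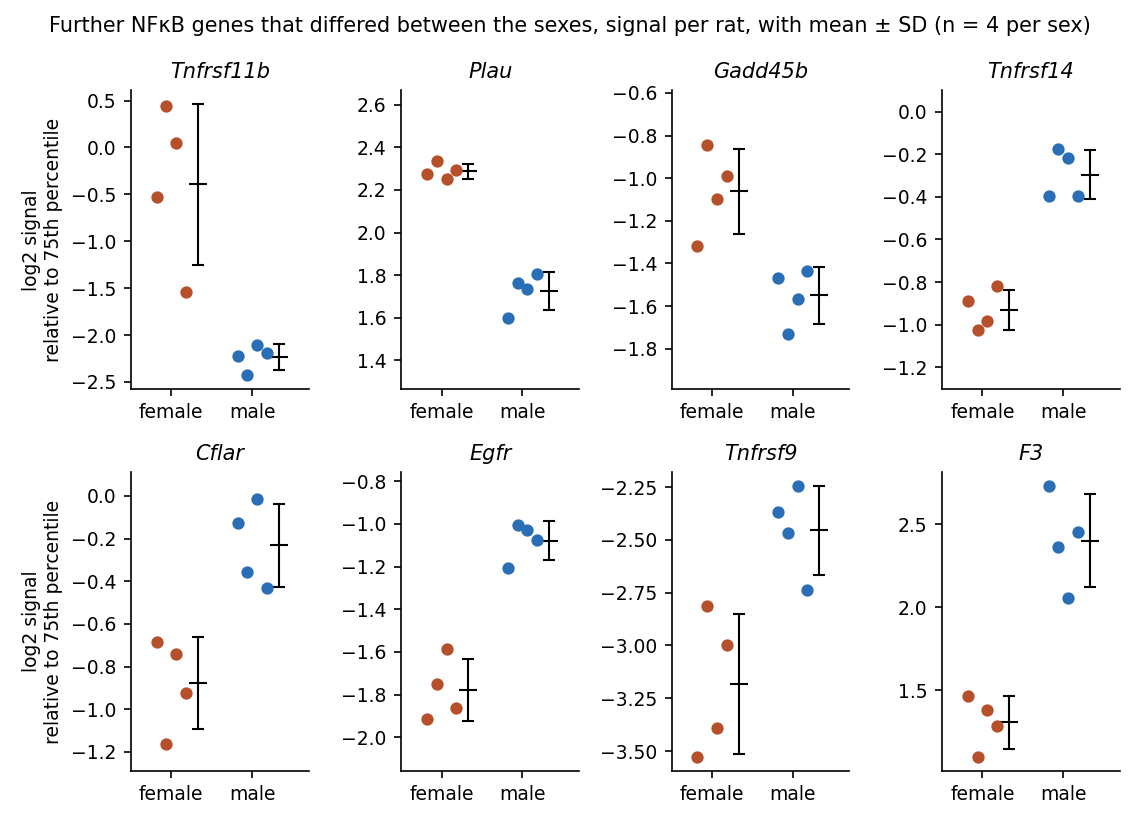
Log2 signal relative to the 75th percentile of the array in each female and male rat (points) for the 8 further genes of NFκB signalling with an adjusted p below 0.05, ordered by log2 fold-change, with mean ± SD (n = 4 per sex). In all 8 genes the sexes do not overlap, and the females of Tnfrsf11b are spread from -1.54 to 0.44.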

How the data were processed

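RNA of cortical kidney slices from 4 male and 4 female rats was measured on 8 one-colour Agilent arrays of 1 slide. Deposited by the authors were spot signal intensities, background-subtracted by the Feature Extraction software 10.7.3.1 without normalization between arrays, and log2 values of the same arrays, for which their processing notes name limma 3.8.2. Both deposited kinds were used, the log2 values as an alternative. Samples were grouped by their labels.

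From the intensities, outlier spots were left out, the 75th percentile of the array was subtracted on the log2 scale, and spots carrying the same probe were averaged. A probe counted as well above background on an array if most of its spots did. The 23425 probes that met this on 4 or more of the 8 arrays were fitted with limma 3.58.1 (lmFit, eBayes, R 4.3.3, with the package data.table in version 1.17.8), male minus female without covariates, with Benjamini-Hochberg adjustment. The fit was tested on simulated data. Single genes were also tested by an exact permutation test over the 70 assignments. Genes were matched through RefSeq accessions to symbols of the assembly GRCr8, which named 17514 of 30367 probes. Of the probes, 73.8% to 79.1% were well above background on an array, no spot was saturated, and the number of arrays limits the precision. Correlations between arrays were 0.992 to 0.995 within and 0.984 to 0.991 between the sexes. Figures were drawn with matplotlib 3.10.9 in Python 3.11.15 with pandas 2.3.3.

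The members, the further lists and the marker lists were chosen with earlier results of these data known. Values in every rat are given for members with an adjusted p below 0.05, without overlap between the sexes or with a log2 fold-change of at least 0.5 in size, for the subunits and Nfkbia, and other members are given by range and role. From the further lists only genes with an adjusted p below 0.05 are named, at most 5 per direction, and Bcl6 is named because the study links it to NFκB. Alternatives were quantile normalization, the authors' log2 values, normexp background correction (offset 16), other filters on dim probes, outlier spots kept, array weights, a robust prior with an intensity trend, a block for the slide row or for the replicate number, the next probe of a gene, and leaving out each array. Real-time PCR and reporter assays were not analysed here.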

Additional observations from a re-analysis of the deposited data

Results flagged for a closer look

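In each of the 30 tested genes, the 4 values of either sex were searched for a rat that stood far from the others of its sex by Dixon's criterion. Of the 60 groups, 2 held such a rat, where chance at 1 in 20 gives 3. For Ccl20, male 1 gave -4.19, while the other males lay between -3.30 and -3.15. For Ccl5, male 4 gave 0.32, while the other males lay between 0.76 and 0.85.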

How the results depend on the processing

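Bcl3 passed the threshold under each of the 18 alternatives that could be run for it, since it has no second probe, with log2 fold-changes of 0.74 to 0.83 and adjusted p of 0.000339 to 0.0143. The count of members higher in males was 1 in every alternative but 1: leaving out 1 array in turn it was 1 to 2, and the 2 without female replicate 4 were Bcl3 and Tnfrsf1b. No member was higher in females or passed with at least 2-fold under any alternative, the median log2 fold-change of the members lay between 0.01 and 0.09, and 29 or 30 intervals lay inside 2-fold. The count of members without overlap, 2, became 6 with quantile normalization and with the authors' log2 values and 4 with normexp background correction (all probes 18.9%, 18.8% and 17.7%). Chuk, Irak1 and Myd88 joined in each, Tnf joined in the former pair and Nfkb2 dropped out with normexp. On leaving out 1 array the count was 2 to 6, while the share of all probes also rose, from 18.5% to between 21.4% and 24.2%. The count was 6 without female 1 (all probes 23.5%) or female 4 (24.2%) and 5 without male 1 (24.1%). It was 4 without male 3 (22.6%) and 3 without male 4 (22.5%). The log2 fold-change of Nfkbia, -0.0027, changed its sign with quantile normalization (0.0092), the authors' log2 values (0.0065), normexp (0.013) and array weights (0.031), and ranged from -0.092 to 0.13 on leaving out 1 array. The cause was not tested. Of the further genes, Tnfrsf14, Egfr, Plau and F3 passed in all 18 alternatives run for them, Cflar in 14 of 19, Tnfrsf11b in 11 of 18, Tnfrsf9 in 9 of 18 and Gadd45b in 8 of 18, most of the lost calls on leaving out 1 array.

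Over all probes, 795 were higher and 1094 lower in males, so that 42.1% of the calls were higher in males. This share was 54.5% (1078 and 901) with quantile normalization and 54.4% (1061 and 889) with the authors' log2 values, under which 23 and 22 of the 30 members had the higher mean in males. The replicate numbers of the labels were tested as a pairing. The deviations of same-numbered rats correlated at 0.125, 0.0427, -0.0079 and 0.117, and 2 of 4 females correlated best with the male of their number. So few rats can neither show nor exclude that same-numbered rats share more than a number. With the replicate number as a block the count of members higher in males stayed at 1, Bcl3, and calls over all probes fell to 453 and 577.

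With 4 rats per sex, the intervals of the members other than Bcl3 reach from -1.05, the lower limit of Ccl20, to 0.75, the upper limit of Ccl5. The interval of each single member was narrower than this range. Dim probes, such as that of Ikbkg, were measured less precisely, and Il6 and Cxcl2 were well above background on no array. The 8 members without a probe remain unmeasured here.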
